A study of Sus scrofa with 8 samples.

Results

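The genes described here encode the mitochondrial ribosome and the translocases that carry proteins into mitochondria. Their members were the probe sets of the Affymetrix Porcine array for which the platform annotation gave exactly 1 gene symbol and that symbol began with MRPL, MRPS, TOMM or TIMM followed by a digit. This rule used no measured value. It found 99 of the 24123 probe sets, for 76 genes. Of these, 51 probe sets stood for 36 genes named for the large ribosomal subunit (MRPL) and 26 for 22 genes named for the small subunit (MRPS). A further 7 stood for 7 genes named for the translocase of the outer membrane (TOMM) and 15 for 11 genes named for the translocases of the inner membrane (TIMM).

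Samples came from 4 weaned crossbred Landrace × Large White sows in heat that had not yet ovulated. In each sow, X-spermatozoa were placed in 1 oviduct and Y-spermatozoa in the other, after both uterine horns had been closed with staples. Both sperm doses were flow-sorted and pooled from the semen of several boars, so the sorted populations shared their males and neither was pure. The scraped oviductal mucosa was collected 24 h later and each oviduct gave 1 array, X1 to X4 for X-spermatozoa and Y1 to Y4 for Y-spermatozoa. The number is the biological replicate in the labels, and arrays that share it were taken as 1 sow. An oviduct without spermatozoa was not analysed here, so every difference below is between the sperm types. Each array measured RNA of a mixed scraping, in which fewer cells of a type and less RNA per cell cannot be told apart.

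The mitochondrial ribosome translates the few proteins that mitochondrial DNA encodes, which are core parts of the respiratory chain and the ATP synthase. All of its own proteins are encoded in the nucleus, made in the cytosol and imported. Precursors enter through the TOM complex of the outer membrane, and the small TIMM proteins, the TIM22 complex or the TIM23 complex then hand them on to the inner membrane or the matrix. Ciliated and secretory cells of the oviduct depend on ATP for ciliary beating and for secretion.

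The 76 genes were well measured. The background level of an array, taken as the 95th percentile of 64 reporter probe sets, was 8.40 to 12.5 signal units, and 89 of the 99 probe sets lay above it on all 8 arrays, 6 on some and 4 on none. The brightest probe set of every one of the 76 genes was above background on all 8 arrays, with gene means of 28.3 to 519 and a median of 110. A mean signal above the median of all probe sets tested was found for 80 of the 99, against 50.0% by construction for all 23999. The defining secretory transcript of the oviduct, OVGP1, stood at 5841.4 to 9314.9 and the epithelial marker EPCAM at 2890.5 to 3805.0, so the markers of the labelled tissue were present. The array median was 38.7 to 41.2. The ratio of 3′ to 5′ GAPDH signal is a measure of RNA integrity and labelling. It was 2.83, 2.43, 3.17 and 3.09 on X1 to X4 and 2.98, 3.11, 2.25 and 3.92 on Y1 to Y4, and its part in the results was not tested. Hybridisation controls averaged 9.43 to 9.63 on the log2 scale on the X arrays and 9.66 to 9.93 on the Y arrays, and the part of this shift in the results was not tested. In what follows, signals are the deposited linear values, and differences are Y-spermatozoa minus X-spermatozoa on the log2 scale after quantile normalization.

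None of the 99 member probe sets passed the test between the sperm types. At an unadjusted limma p under 0.05, 0 of 99 probe sets were called, against 3.56% of all 23999 (1.62% higher and 1.94% lower with Y-spermatozoa). With the sow as a block in the limma fit, 0 of 99 were called against 5.09%. After Benjamini-Hochberg adjustment limma called 0 of 23999 probe sets, with or without the block. Leaving out 1 array gave 2 calls among the 99 without X1 (TIMM10 and a dim probe set of MRPL35), 2 without X2 (TIMM44 and MRPL50), 3 without Y1 (MRPL33, TIMM10 and the same dim probe set of MRPL35) and 1 without Y3 (MRPS35). Over all 23999 probe sets the calls were then 767, 1029, 974 and 911. The same comparison without limma's moderation of the variance called 3 (MRPL10, MRPL33 and MRPL39, of 870 among all probe sets) and 0 after adjustment, and limma on the brighter probe sets alone called 1 of 80 (TIMM10, background 2.59%). The adjusted limma p was 1 for every member, so single members below are given with the exact two-sided permutation test over all 70 regroupings of the 8 arrays, on the normalized values. That test ignores the pairing by sow, and the smallest permutation p it allows is 0.0286.

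The differences were small as well as uncalled. The median over the 99 probe sets was 0.04 on the log2 scale, with 63 above 0 and 36 below, beside 0.00 for all probe sets tested. It was 0.01 with the deposited scaling, with 57 above 0 and 42 below, and with 1 array left out it was -0.014 without Y2 and -0.00059 without Y4, so its sign rests on those arrays. By group the median was 0.04 for MRPL, 0.04 for MRPS, 0.04 for TOMM and 0.01 for TIMM. With 1 probe set per gene, the brightest, differences ran from -0.37 for MRPL50 to 0.45 for TIMM44, and 51 genes were above 0 and 25 below. The 95% interval of the difference stayed within 1.5-fold in either direction for 73 of 99 probe sets, against 42.2% of all, and within 2-fold for 89 of 99, against 68.4%. Among brighter probe sets the 1.5-fold count was 68 of 80 members against 71.1%. All 7 TOMM genes had an interval within 1.5-fold.

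**Figure D1:**
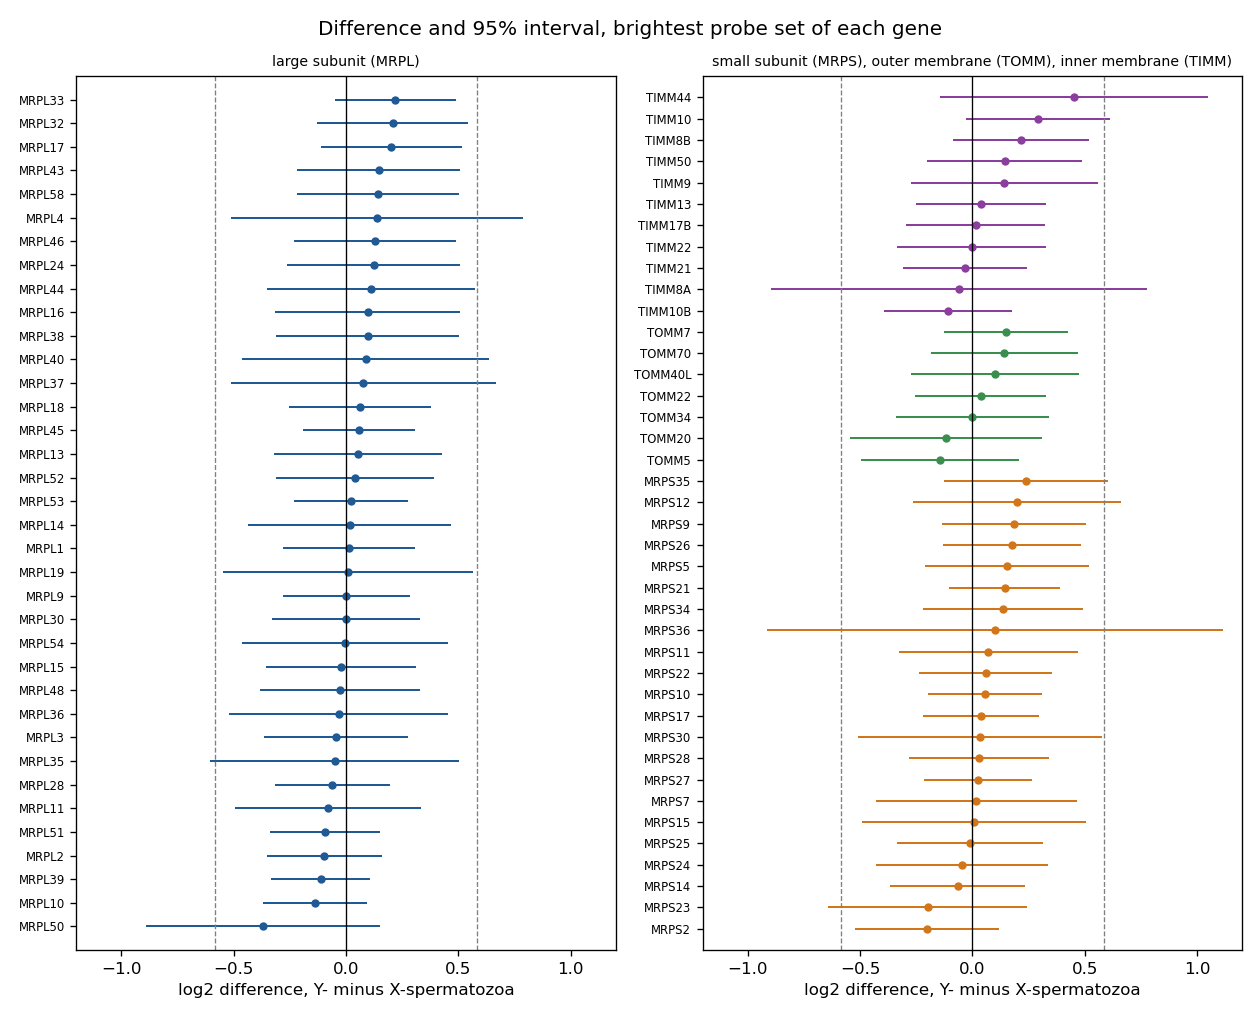
Difference between the sperm types for each of the 76 genes, as a point with its 95% limma interval (log2, Y-spermatozoa minus X-spermatozoa, 4 arrays per group), for the brightest probe set of the gene. Dashed lines mark 1.5-fold. Every interval includes 0, points run from -0.37 (MRPL50) to 0.45 (TIMM44), and MRPS36 and TIMM8A have wide intervals.

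In the large subunit, MRPL33, a small protein near the exit site for transfer RNA, had the smallest limma p of its group among probe sets above background on all arrays. Its signals were 93.7, 80.9, 92.5 and 93.2 on X1 to X4 and 91.5, 115.3, 107.4 and 101.1 on Y1 to Y4. Only Y1 fell among the X arrays. The difference was 0.22 (SE 0.11, exact permutation p = 0.0857) and its other probe set gave 0.25 (SE 0.21). MRPL50, a protein with no bacterial counterpart, lay at the other end, with signals of 64.9, 43.2, 58.9 and 87.1 against 40.1, 47.9, 45.5 and 55.8. It was lower with Y-spermatozoa in sows 1, 3 and 4 and higher in sow 2, and the groups overlapped (difference -0.37, SE 0.22, exact permutation p = 0.171). MRPL35 had a difference of 0.82 (SE 0.39) by 1 of its 3 probe sets, whose signals were 3.5 to 15.3 and above background on 2 arrays, while its brightest probe set gave -0.05 (SE 0.24).

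MRPL10 and MRPL39 were the only 2 members of 99 whose deposited signals did not overlap between the groups, against 2.30% of all probe sets (1.60% lower and 0.700% higher with Y-spermatozoa). Both were chosen for this after their values were seen. MRPL10, a protein of the stalk to which translation factors bind, had 198.8, 218.1, 197.1 and 225.4 with X-spermatozoa and 186.7, 187.8, 195.0 and 191.5 with Y-spermatozoa. MRPL39, another protein of the large subunit, had 151.7, 149.4, 153.8 and 149.7 against 131.2, 143.2, 134.6 and 147.1. All 4 Y arrays lay below all 4 X arrays in both genes, but by little. The difference was -0.14 (SE 0.10) for MRPL10 and -0.11 (SE 0.09) for MRPL39, neither called by limma. For both the exact permutation p was 0.0286, the smallest possible, which groups without overlap give by construction. MRPL3, the brightest probe set of the large subunit and a protein close to the peptidyl transferase centre, had group means of 282 ± 26.0 and 274 ± 37.9 (SD, n = 4).

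In the small subunit, MRPS35 and MRPS2 had the smallest limma p-values. MRPS35, a protein of the mitochondrial small subunit, had signals of 45.6, 41.7, 43.0 and 47.4 on the X arrays and 48.1, 58.7, 40.9 and 61.1 on the Y arrays. Y2 and Y4 were high and Y3 was below every X array (difference 0.24, SE 0.16, exact permutation p = 0.200). MRPS2, a counterpart of a bacterial ribosomal protein, had 76.3, 91.7, 93.2 and 97.3 against 86.9, 83.5, 66.7 and 72.3. Sow 1 went up and the other 3 sows went down, and the groups overlapped (difference -0.20, SE 0.14, exact permutation p = 0.143). The second probe set of MRPS2 was near or below background on every array, at 1.0 to 13.9. MRPS21, the brightest of the small subunit, had means of 286 ± 14.7 and 317 ± 25.2 and was above its sow's X array on each of the Y arrays (difference 0.14, SE 0.10, exact permutation p = 0.0857).

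Genes of the outer membrane complex had differences of -0.14 (TOMM5) to 0.15. TOMM7, a small subunit that tunes the assembly of the complex, was the brightest member, at 489.2, 514.2, 511.3 and 440.3 with X-spermatozoa and 495.1, 628.6, 534.7 and 537.4 with Y-spermatozoa. Each Y array was above the X array of its sow, and the groups overlapped (difference 0.15, SE 0.12, exact permutation p = 0.143). The receptors that bind precursors first gave -0.12 (SE 0.18) for TOMM20, 0.04 (SE 0.12) for TOMM22, which also organises the complex, and 0.14 (SE 0.14) for TOMM70, the receptor for carrier proteins. TOMM20 had 184.7 on Y1 and 245.2 to 306.7 on the other 7 arrays. TOMM40L, a paralog of the channel protein, gave 0.10 (SE 0.16). TOMM34, a cytosolic protein that binds chaperones, gave -0.00 (SE 0.14).

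The inner membrane genes held the smallest limma p and the largest difference of a brightest probe set. TIMM10, a small chaperone of the space between the membranes, had 75.1, 59.7, 66.2 and 67.6 with X-spermatozoa and 68.7, 94.4, 82.4 and 81.5 with Y-spermatozoa. Y2, Y3 and Y4 were above every X array and Y1 was not (difference 0.29, SE 0.14, exact permutation p = 0.0571). TIMM44, which tethers the import motor to the TIM23 channel, had 19.4, 36.6, 21.8 and 33.3 against 33.2, 45.2, 37.8 and 29.0. It was higher with Y-spermatozoa in sows 1 to 3 and lower in sow 4 (difference 0.45, SE 0.25, exact permutation p = 0.171), and its dimmer probe sets gave -0.09 and -0.21.

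The other small chaperones of the intermembrane space had differences on both sides of 0. TIMM8B gave 0.22 (SE 0.13, exact permutation p = 0.114), with means of 258 ± 30.6 and 301 ± 28.8. TIMM9, the partner of TIMM10, gave 0.14 (SE 0.18), TIMM13 gave 0.04 (SE 0.12) and TIMM8A gave -0.06 (SE 0.36). TIMM8A varied widely within both groups, from 41.8 to 63.1 on the X arrays and from 27.6 to 74.0 on the Y arrays. TIMM10B, the partner in the TIM22 complex, gave -0.11 by its brighter probe set (SE 0.12). Its other probe set lay below background on all 8 arrays. Of the channel and receptor subunits, TIMM22 gave -0.00 (SE 0.14), TIMM17B gave 0.01 (SE 0.13) and TIMM50, the receptor of the TIM23 complex, gave 0.14 (SE 0.15).

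The share of members that moved the same way in every sow was near that of all probe sets, also among brighter probe sets (12.5% against 14.8%). On the normalized scale 10 of 99 probe sets moved the same way in all 4 sows, against 13.2% of all probe sets. Of these, 8 were higher with Y-spermatozoa (background 6.44%), in MRPL17, MRPL32, MRPL43, MRPL46, MRPS21, MRPS26, TOMM7 and TIMM50, and 2 were lower (background 6.71%), which were MRPL10 and MRPL39. MRPL17, MRPL32, MRPL43, MRPL46 and MRPS26 are listed for this count and fall outside the rule for named genes. In MRPL32, MRPL43, MRPL46 and TIMM50 another probe set, also above background on all 8 arrays, did not share this. It was higher with Y-spermatozoa in 2, 1, 1 and 2 sows in that order. MRPL17, a protein near the peptide exit tunnel, had 162.9, 167.7, 157.8 and 178.5 against 186.1, 227.7, 159.5 and 197.3, where Y3 fell among the X arrays.

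The direction of the members as a whole changed from sow to sow. In sow 1 the median within-sow difference was -0.10, with 30 probe sets higher with Y-spermatozoa and 68 lower. In sow 2 it was 0.14, with 74 higher and 25 lower. Sow 3 was level, at 0.00 with 51 higher and 48 lower, and sow 4 was at 0.11 with 64 higher and 34 lower. Over all 23999 probe sets the within-sow median was 0.00 in each sow, and 48.5% to 50.3% were higher, values that quantile normalization holds near 0 and 50.0%. With the deposited scaling 45.1% to 47.5% of all probe sets were higher, beside 30, 70, 48 and 62 of the 99 members in sows 1 to 4. All 4 groups shared the direction of sow 1 and of sow 2. In sow 4 the small subunit stood out, with a median of 0.30 and 20 of 26 probe sets higher, beside 0.10 for MRPL, 0.01 for TOMM and 0.00 for TIMM.

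**Figure D2:**
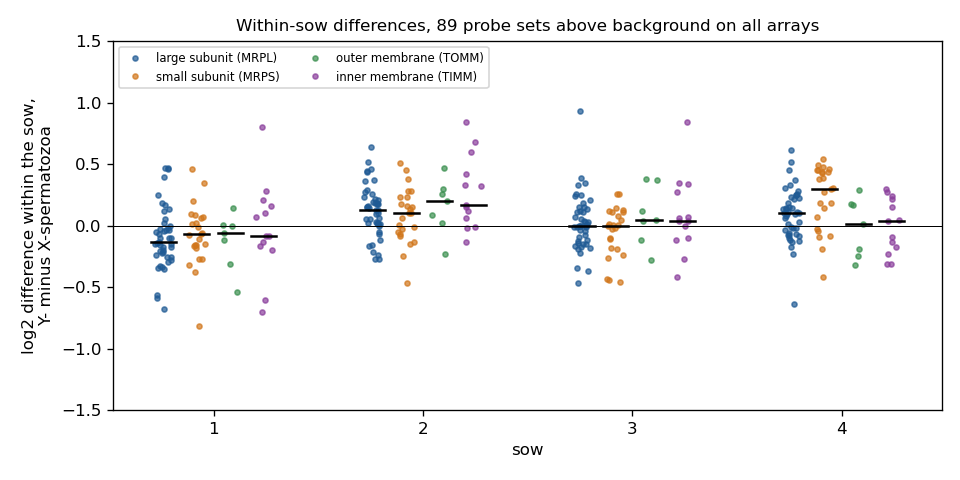
Log2 difference between Y- and X-spermatozoa within each sow for the 89 probe sets above background on all 8 arrays, 1 point per probe set, coloured by group, with black lines at the group medians. The points sit mostly below 0 in sow 1, mostly above 0 in sow 2, and the small subunit is high in sow 4.

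The median deviation of the 99 probe sets from their own mean over the 8 arrays was -0.00, 0.07, -0.06 and -0.00 on X1 to X4 and -0.11, 0.18, -0.05 and 0.09 on Y1 to Y4. Y2 was high and Y1 low, and both arrays of sow 2 were above 0 and both of sow 3 below. All probe sets had a median deviation of 0.00 to 0.01 on every array, which the normalization also holds near 0. On Y2 the medians of the 4 groups were 0.18 (MRPL), 0.18 (MRPS), 0.20 (TOMM) and 0.29 (TIMM). On Y1 they were -0.11, -0.13, -0.07 and -0.10 in the same order. Across the 8 arrays the median Pearson r between pairs of the 80 brighter members was 0.25, with 70.7% of pairs above 0, beside -0.00 and 50.0% for pairs of all 11999 brighter probe sets. It was 0.44 among the small subunit probe sets, 0.28 for TIMM, 0.21 for MRPL and 0.08 for TOMM. These are descriptions over 8 arrays that share 4 sows.

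**Figure D3:**
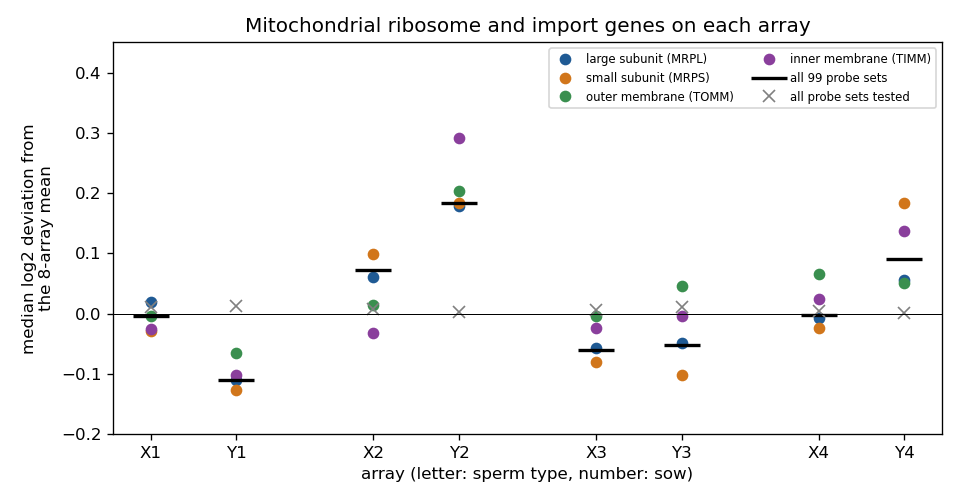
Median log2 deviation from the 8-array mean on each array, for the 4 gene groups (coloured points), all 99 members (black bars) and all 23999 probe sets (grey crosses). The members reach 0.18 on Y2 and -0.11 on Y1, while all probe sets stay near 0.

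Some markers of other cell types were high or low on the same arrays, and others of the same lists were not. VIM, a filament protein of stromal cells, had 2926.2, 3197.3, 1992.7 and 2262.7 on X1 to X4 and 1996.5, 3680.0, 1989.1 and 3472.6 on Y1 to Y4. It was highest on Y2 and Y4, whereas the stromal marker COL3A1 was highest on Y4 and X2, at 41.5 and 31.6, and had 16.8 on Y2. The endothelial marker VWF had 34.7, 67.7, 34.2 and 39.2 against 41.1, 89.2, 38.6 and 78.2, again highest on Y2 and Y4, and the endothelial marker PECAM1 had 93.7, 118.9, 95.1 and 89.7 against 77.7, 117.3, 71.2 and 113.5, highest on X2 and Y2. The ciliary gene TEKT1 ran the other way, at 408.2, 271.9, 402.3 and 259.2 against 457.5, 326.8, 493.8 and 288.2, with the higher values in sows 1 and 3. The other ciliary gene measured, CAPS, did not follow it, at 746.6, 925.8, 768.7 and 679.5 against 916.7, 932.1, 1013.7 and 657.4. The summed signal of the 3 smooth muscle markers measured of 4 listed (ACTA2, CNN1 and DES) was 1387.2 to 3946.6 on the X arrays and 930.3 to 3143.8 on the Y arrays. Sums were 2003.9 to 3228.9 and 2002.5 to 3696.8 for 2 of 3 stromal markers, 128.4 to 186.6 and 109.8 to 206.5 for both endothelial markers, and 938.7 to 1197.7 and 945.6 to 1507.5 for 2 of 4 ciliary markers. The part of cell composition or of RNA integrity in the members' shifts was not tested.

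**Figure D4:**
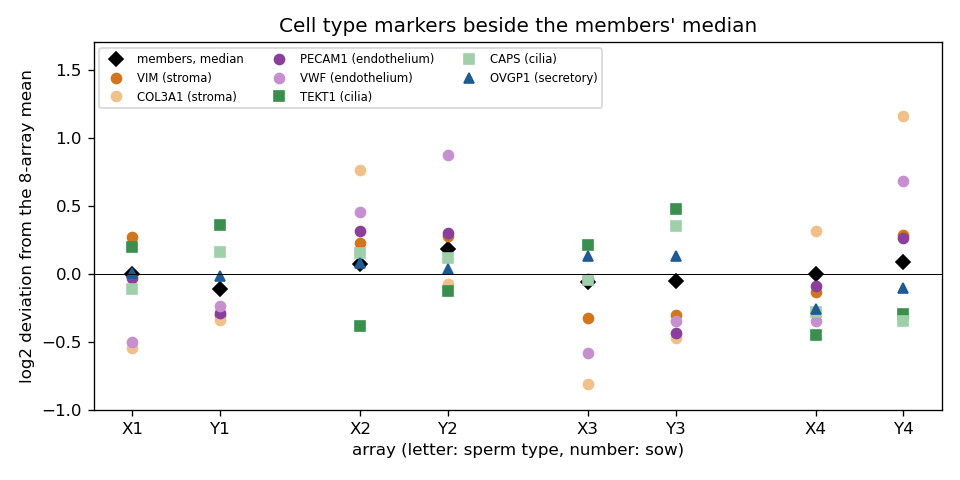
Log2 deviation from the 8-array mean on each array for the members' median (black diamonds) and for single markers of stroma (VIM, COL3A1), endothelium (PECAM1, VWF), cilia (TEKT1, CAPS) and secretory cells (OVGP1). On Y2 the members' median, VIM, PECAM1, VWF and CAPS are above 0 and TEKT1 and COL3A1 are below. On Y1 the members' median, VIM, COL3A1, PECAM1 and VWF are below 0 and TEKT1 and CAPS are above.

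The other marker lists gave these values. Of the secretory list, 3 of 4 genes were measured. Their sum was 9901.7 to 12415.4 on the X arrays and 12448.4 to 13186.9 on the Y arrays. None of the 3 passed the limma test after normalization. OVGP1 made up most of each sum, at high signals where quantile normalization leaves little difference between arrays. Its means were 7159 and 8674 before normalization and its difference was 0.02 after it. The test therefore cannot decide whether the sums differed. The 3 of 4 leukocyte markers measured summed to only 29.9 to 34.7 and 28.0 to 45.6. Among them the defining marker PTPRC was above background on 2 of 8 arrays and higher with Y-spermatozoa by limma at the unadjusted threshold. CD3E, above background on all 8 arrays, went the other way (difference -0.21). CD14, above background on 4 arrays, gave 0.36, and neither was called. The red cell marker HBB was 162.5 to 237.0. Of the sperm transcripts, PRM1 lay below background on all 8 arrays, at 0.8 to 3.1. Limma called these values higher with Y-spermatozoa at the unadjusted threshold. PRM2, at 3.8 to 19.1, went the other way (difference -0.45) and was not called.

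Differences between sows were tested with a limma F test of the sow terms, with sperm type in the model and 2 arrays per sow. At an unadjusted p under 0.05 the test called 5 of 99 members, against 14.2% of all probe sets, and 0 of 23999 after adjustment. MRPS36 had the smallest p (limma adjusted p = 0.266), and this protein, first named as a ribosomal subunit, is now known as a part of the oxoglutarate dehydrogenase complex. By its symbol it is counted with the small subunit in all values given here. Its signals were 54.3, 51.3, 29.2 and 53.6 on X1 to X4 and 54.7, 68.5, 20.7 and 69.5 on Y1 to Y4. Both oviducts of sow 3 lay below all 6 others, and the sow means were 54.5, 59.9, 24.95 and 61.6, a ratio of 2.47 between the highest and the lowest.

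The other 4 were large subunit genes, and sow 2 was the highest in each. MRPL36, a small counterpart of a bacterial large subunit protein, had sow means of 113, 148, 92.6 and 126 (limma adjusted p = 0.294). The brightest probe set of MRPL35 had sow means of 151, 220, 128 and 148 (limma adjusted p = 0.296). MRPL37 had 111, 200, 133 and 143 (limma adjusted p = 0.308) and MRPL19 had 104, 143, 85.0 and 122 (limma adjusted p = 0.323), both outside the rule for named genes and given to complete the count. Sow 3 was the lowest in MRPL36, MRPL35 and MRPL19 and sow 1 in MRPL37. The highest sow had 1.60 to 1.80 times the mean signal of the lowest. Without sow 3 the test called 2 members, MRPL37 and a dim probe set of MRPL3, against 11.7% of all probe sets, and without sow 1 it called 9 against 11.8%. Limited to brighter probe sets, it called 17 of 80 (background 29.4%) and, after adjustment, 2 of 80 (background 7.46%), which were MRPS36 and MRPL35.

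**Figure D5:**
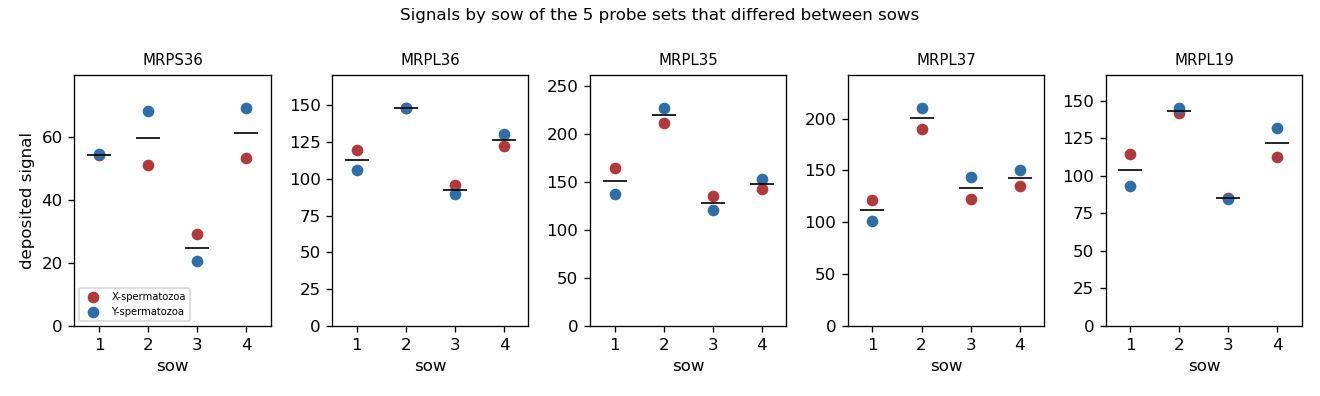
Deposited signals by sow for the 5 probe sets called between sows at the unadjusted threshold, with X-spermatozoa in red, Y-spermatozoa in blue and black bars at the sow means. MRPS36 is low in both oviducts of sow 3, and the other 4 are highest in both oviducts of sow 2.

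The remaining members chosen for their p between sows did not pass. MRPS7, a counterpart of a core bacterial small subunit protein, had sow means of 35.6, 52.2, 39.3 and 46.4 (limma adjusted p = 0.396). TIMM9 had 120, 153, 105 and 126 (limma adjusted p = 0.371) and TIMM50 had 64.8, 74.5, 77.3 and 87.8 (limma adjusted p = 0.413). Sow 2 was highest in MRPS7 and TIMM9 but not in TIMM50, where sow 4 was. TOMM20 and TOMM34 had the smallest p between sows of their group and did not pass either.

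Different probe sets of a gene often disagreed in sign. Of the 76 genes, 17 had several probe sets, 40 in all, and in 10 of the 17 at least 1 probe set was above 0 and at least 1 below. In MRPL43 both were above background on all arrays, with differences of 0.15 (means 238 ± 26.2 and 265 ± 45.1) and -0.13 (means 103 ± 15.4 and 92.5 ± 9.77). In MRPS9 they were 0.18 and -0.17, likewise both above background. In some others a dim probe set disagreed, such as in MRPL15, where it did not exceed 3.9. A further 6 probe sets with several symbols were no members. In 5 of them MRPL55 was listed with another gene, with differences of 0.03 to 0.32, and 1 passed the unadjusted limma threshold (0.27, means 242 ± 13.7 and 293 ± 31.9). In the sixth, MRPL22 was listed with itself, and the difference was 0.03 (means 301 ± 23.6 and 309 ± 39.9).

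Of 58 other symbols listed for mitochondrial translation, import, folding and their control, 34 were measured under that symbol. Some of the 58 were older or second symbols, so they are not a count of genes. Of the 34, 0 passed the test between the sperm types in either direction. Their median difference was 0.02, with 25 above 0 and 9 below. With the sow as a limma block 2 of 34 passed, both lower with Y-spermatozoa, against a background of 5.09%. PPARGC1A, a coactivator that drives mitochondrial biogenesis, had 58, 47.9, 35.3 and 59.2 with X-spermatozoa and 49.9, 32.5, 26.1 and 46.7 with Y-spermatozoa. It was lower in all 4 sows while the groups overlapped (difference -0.36, exact permutation p = 0.229 without the pairing). IMMP2L, a peptidase that removes sorting signals in the inner membrane, had 62.2, 86.3, 61.9 and 56.2 against 46.1, 69.8, 35.4 and 51.1. It was also lower in all 4 sows (difference -0.40, exact permutation p = 0.171 without the pairing), but its second probe set gave -0.05. In the blocked limma fit the adjusted p was 0.895 for both.

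Differences of the 34 between the sperm types ran from -0.40 (IMMP2L) to 0.53 (VARS2, above background on 7 of 8 arrays), with 25 above 0 and 9 below. HSPA9, the matrix chaperone that pulls precursors in, gave 0.02, OXA1L, which inserts new proteins into the inner membrane, gave 0.09 and TUFM, the elongation factor of the mitochondrial ribosome, gave 0.12. DAP3, a small subunit protein without an MRPS symbol, gave 0.08. Between sows 5 of the 34 passed the limma F test at an unadjusted p under 0.05, against 14.2% of all probe sets, in HSPD1, MIPEP, MTRF1, PPARGC1A and PTCD3. PPARGC1A had the smallest p of the 5, with higher signals in sows 1 and 4.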

How the data were processed

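The authors deposited linear signal intensities, 1 per probe set and array, made with Microarray Suite (MAS5, version 5.1, per the submitters' processing notes) and scaled by them. According to the methods the study used RMA, for which probe-level files would be needed. Here the intensities were quantile normalized, values under 1 set to 1 and log2 taken. AFFX controls were left out and the other 23999 probe sets were fitted with limma 3.58.1 (R 4.3.3) on group means, two-sided, with Benjamini-Hochberg adjustment over all of them. Group means and SDs are of deposited intensities. Other values came from Python 3.11.15, pandas 2.3.3 and scipy 1.17.1, and figures from matplotlib 3.10.9.

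The labels number the replicates and do not name the sows. Arrays with the same number were paired, since both oviducts of a sow were used. The residuals of such a pair of arrays about their group means had a Pearson r of 0.13 to 0.19. Without the same value for arrays of different numbers, this cannot decide whether the pairing is right. The sow as a block was an alternative, beside other scalings, offsets, floors, filters, a variance trend, a test without variance moderation and leaving out arrays or sows. The fit was tested on simulated data.

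The members and lists were chosen with earlier results of these data known. Named genes were, in each group, the 2 smallest p between sperm types and between sows, the highest and lowest mean signal, a list of core import genes, and members passing a test, with any others said to be so. MRPL43, MRPL50, TOMM5, the probe sets of several symbols and pathway genes that did not pass were named after their values were seen. Of the core list, TOMM40, TIMM23 and TIMM17A were not analysed here. Symbols come from the platform annotation, in which 10099 probe sets have 1 entry and 198 several. Of the 76 genes, 75 matched the RefSeq gene table. The number of arrays limits the precision.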

Additional observations from a re-analysis of the deposited data

Results flagged for a closer look

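In the groups of 4 arrays of the 28 probe sets chosen by the naming rule, 4 of 56 groups had 1 array far from the other 3, by the gap relative to the range (Dixon's test). With a 5% error rate in each group, a few such groups arise by chance. MRPL33 was at 80.9 on X2 and at 92.5 to 93.7 on the other X arrays. MRPS36 was at 29.2 on X3 and at 51.3 to 54.3 on the others, and Y3 of the same sow was low too. TIMM22 was at 100.5 on Y2 and at 76.0 to 77.8 on the other Y arrays. TOMM34 was at 65.6 on X1 and at 77.8 to 78.8 on the other X arrays. The 4 arrays are 4 different ones, and no cause was tested.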

How the results depend on the processing

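With the sow as a replicate block, 0 members passed between the sperm types and the median over them was 0.036. This median was 0.0026 to 0.090 with the block and 1 sow left out, and -0.014 to 0.083 without the block and 1 array left out. The listed other genes of the pathway went from 0 calls to 2 with the block. Members called were 1 among brighter probe sets only, 3 without variance moderation, and 0 to 3 when 1 array, or 1 sow with the block, was left out. Over all probe sets the calls were 855, 311 among the brighter, and 767 to 1029 with 1 array left out. With the block they were 1222, and 1079 to 1207 with 1 sow left out. Between sows 5 members were called, against 14.2% of all probe sets. They were 12 with a pseudocount of 16 (20.0% of all), a floor at background (20.4%) or a variance trend (19.5%), 17 among brighter probe sets (29.4%), 8 with sperm type left out of the model (15.9%), and 2 to 9 with 1 sow left out. After adjustment these calls over all probe sets went from 0 to 414 with the pseudocount, 705 with the floor (1 of them a member), 209 with the trend and 72 with sperm type left out. The cause of these changes was not tested.

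Differences near 0 changed sign. With the deposited scaling the dim probe set of MRPL15 was -0.025 and MRPS7 -0.0186. With the floor at background that probe set of MRPL15 was -0.111 and the dim one of MRPS2 0.0272. With median centring TIMM22 was 0.0182 and TOMM34 0.0174, and with the pseudocount TOMM34 was 0.00048. Leaving out 1 array or sow gave -0.37 to 0.35 for that dim probe set of MRPL15 and -0.13 to 0.51 for MRPS36. It gave -0.077 to 0.14 for MRPS7 and -0.73 to 0.079 for the dim probe set of TIMM10B. By the brightest probe set it gave -0.12 to 0.039 for MRPL3, -0.24 to 0.084 for MRPL35 and -0.15 to 0.098 for MRPL36. It gave -0.030 to 0.13 for TIMM13, -0.069 to 0.12 for TIMM17B, -0.11 to 0.0996 for TIMM22, -0.36 to 0.17 for TIMM8A, -0.20 to 0.041 for TOMM20, -0.031 to 0.088 for TOMM22, -0.078 to 0.079 for TOMM34 and -0.025 to 0.24 for TOMM40L. Among those that kept their direction in every setting run were MRPL33, MRPS35, TIMM10, TIMM44 and the dim probe set of MRPL35, all higher with Y-spermatozoa. The brighter probe set of MRPS2 also kept its direction, lower with Y-spermatozoa. All of these were named for a small p between the sperm types on the same arrays, so a kept direction adds no support. MAS5 signals near background vary strongly on the log2 scale, which limits the 10 probe sets not above it on all arrays.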
